A study of Mus musculus with 28 samples.

Results

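The comparison described here asked what changed in differentiating mouse embryonic stem cells during the last sampled day without self-renewal factors, between 96 h and 120 h of withdrawal. Libraries were taken by their labels: 4 collected 96 h and 4 collected 120 h after withdrawal, 8 of the 28 libraries of the series, with 1 library of each group in each of experiments 1 to 4. All were from E14, an unmodified blastocyst-derived mouse embryonic stem cell line, grown on gelatin in N2B27, a serum-free medium based on the N2 and B27 supplements. Before withdrawal the cells were held in 2iL, which is the GSK3 inhibitor CHIR99021, the MEK inhibitor PD0325901 and the cytokine LIF. Both groups received N2B27 without 2iL from the day after plating, and no allele or further agent separated them. The labels name the 120 h group in the title and treatment, while the treatment protocol lists collection times up to 96 h. The other 5 groups were cells in 2iL, cells 24 h and 48 h after withdrawal, and cells given 2iL again for 24 h after 48 h or 96 h of withdrawal.

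In N2B27 without 2iL, mouse embryonic stem cells leave naive pluripotency, pass through a formative state that resembles the early post-implantation epiblast, and then largely become neural progenitors. In the embryo, neural progenitors take regional identities from opposed signals. Otx2 marks the forebrain and midbrain side and Gbx2 the hindbrain side of the midbrain-hindbrain boundary, where an organizer expresses the ligands Wnt1 and Fgf8 and the transcription factors En1, En2, Pax2, Pax5 and Pax8. WNT and BMP ligands from the dorsal midline induce Zic, Msx and Pax3 genes dorsally. Further back, WNT, FGF and retinoic acid induce Cdx and Hox genes, and progenitors beside the regressing streak express T, Nkx1-2 and Sp5.

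Expression was read by 3′ digital sequencing of polyadenylated RNA, in which reads fall near the end of each transcript and counts do not scale with transcript length. Libraries held 1919171 to 2632457 reads counted to genes and 14187 to 14923 genes with a count. Levels are given as CPM, the counts scaled to the size of each library with a TMM factor, in the order of experiments 1, 2, 3 and 4. The share of counts from the mitochondrial genome was 1.99%, 1.71%, 1.73% and 1.70% at 96 h and 1.61%, 1.46%, 1.14% and 1.26% at 120 h, lower at 120 h in every experiment, and its part in the results below was not tested. The libraries of experiment 3 stood apart. On the first principal component of the 8 libraries, which held 49.8% of the variance, the 96 h libraries scored −39.0, −40.2, 14.6 and −20.9 and the 120 h libraries −2.06, 9.51, 48.0 and 30.2. Every experiment thus moved the same way, by 33.4 to 51.1 units, and experiment 3 at 96 h already scored above experiments 1 and 2 at 120 h. Groups therefore overlapped for many genes that differed within every experiment, and the experiment was a term of the fit.

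**Figure D1:**
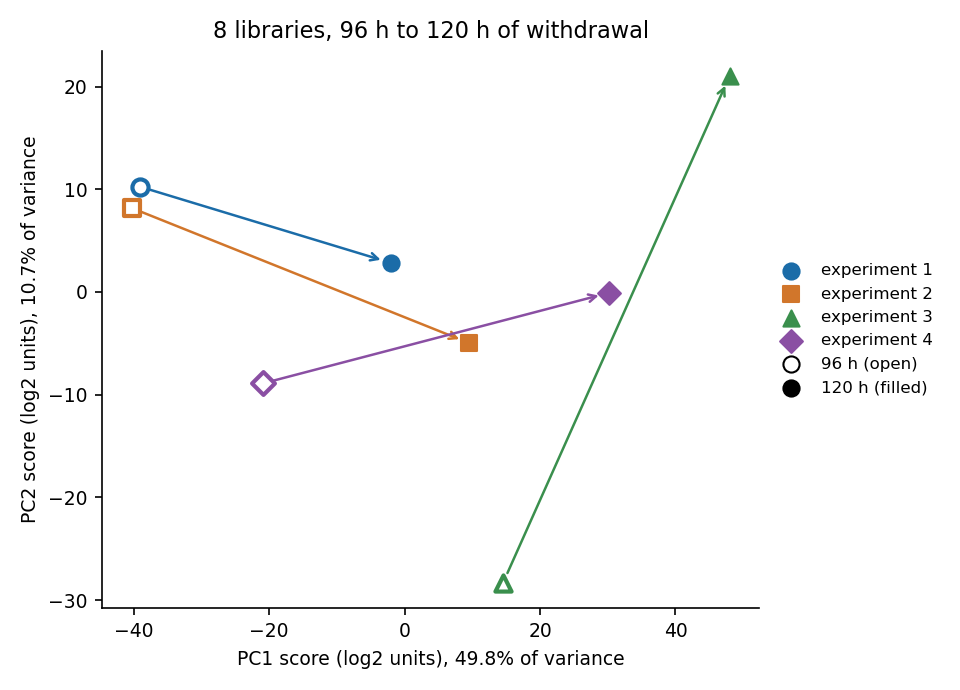
Scores of the 8 libraries on the first 2 principal components of log2 CPM, with the share of variance on each axis. Open symbols are 96 h, filled symbols 120 h, and an arrow joins the libraries of 1 experiment; all 4 arrows run to higher values on the first component, and the 96 h library of experiment 3 (14.6) lies past the 120 h libraries of experiments 1 (−2.06) and 2 (9.51).

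Between 96 h and 120 h, 14 of 22 tested neural progenitor genes and 7 of 13 tested dorsal neural tube genes rose, where 5.19% of all tested genes did, as did T, Nkx1-2 and Sp5 of 4 tested streak and caudal genes. En1, En2, Pax2 and Pax5, which mark the midbrain-hindbrain boundary, rose as well. In the other direction, 12 of 23 tested formative and primed genes and 11 of 21 tested pluripotency genes fell, where 4.5% of all tested genes did, and Cdh1 (E-cadherin) fell with them. Only genes with about 4.63 CPM in 4 libraries were tested, which 120 h levels alone could meet. Of the listed genes, 9 dorsal and 13 streak and caudal genes were untested. The shares of rises in these lists are thus partly set by the filter. At an adjusted p under 0.05 (edgeR quasi-likelihood test with experiment as a block, Benjamini-Hochberg adjustment), 953 of 9836 tested genes differed, or 9.69%. Of these, 510 were higher at 120 h and 443 lower, 388 differed by more than 2-fold, and the median log2 change of all tested genes was 0.0036. Scaling by library totals alone gave 610 higher and 339 lower and put that median at 0.0595, so small falls depended on the scaling. Values in parentheses after a gene are its log2 change (120 h over 96 h) ± SE. Among the 953 genes, 910 moved the same way in all 4 experiments, against 30.7% of all tested genes. Groups did not overlap for 315 of them, against 7.68%. The call itself favours both, since it used the same differences within experiments, so neither count is separate support. No call survived with the experiment left out of the fit, where 1684 genes had an unadjusted p under 0.05, and DESeq2 called 592 genes with the block and 159 without it. Leaving out experiment 4 left 429 calls, experiment 2 left 544, experiment 1 left 600, and leaving out experiment 3 gave 1087. In bulk RNA, fewer cells of a type and less RNA per cell cannot be told apart. The labels do not say how the experiments differed. With the block, p-values set the change from 96 h to 120 h against a spread within these 4 experiments. The edgeR test estimates that spread for each gene partly from all tested genes, so p-values rest only in part on the gene's own spread.

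Zic1, Wnt1 and Hoxb1 mark the dorsal neural tube, the roof plate and midbrain-hindbrain boundary, and the hindbrain. At 96 h, Zic1 and Hoxb1 were near the limit of detection in most experiments, and Wnt1 was so in experiments 1 and 2. Zic1, a zinc-finger factor of the dorsal neural tube (chr9:91358058-91365810, minus strand), stood at 0.917, 0, 6.54 and 0.811 CPM at 96 h and 11.6, 13.9, 67.1 and 20.1 CPM at 120 h. Experiment 3 was the highest at both times, and the groups did not overlap. Its log2 change was 3.91 ± 0.39 (adjusted p = 1.11e-06), although Zic1 overlaps Zic4 on the opposite strand (5 and 26 counts per group) and whether counting used the strand is not stated in the sources used here. Wnt1 (chr15:98789857-98793837, plus strand) stood at 0.459, 1.21, 24.4 and 4.46 CPM at 96 h and 11.6, 23.3, 60.8 and 31.7 CPM at 120 h. It was higher at 120 h within every experiment, but the groups overlapped because experiment 3 at 96 h exceeded experiments 1 and 2 at 120 h. The log2 change of Wnt1 was 2.48 ± 0.35 (adjusted p = 7.86e-05). Hoxb1, the Hox gene of the fourth rhombomere (chr11:96365752-96368256, plus strand), failed the filter on low counts, which asked for about 4.63 CPM in 4 libraries. It had 2 counts in the 4 libraries at 96 h and 114 at 120 h, a ratio of 61.2 with a 95% counting interval of 16.5 to 511, and 1.12, 7.95, 16.2 and 26.3 CPM at 120 h. Without the filter its adjusted p was 1e-15. That fit gave far smaller p-values for the same genes by the same edgeR test (Wnt1 2.76e-16, beside 7.86e-05 with the filter). Adjusted p-values given here and below without the filter therefore cannot be ranked against the others. All 3 marker genes had more counts at 120 h than at 96 h within every experiment, and their lowest 120 h level was in experiment 1.

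The stretch around the annotated start of Wnt1 and Hoxb1 is shown because they are marker genes of this day, and those of T, Sp5 and Hes5 because these stand for the WNT-responsive and Notch-responsive genes described below. Each holds 250 bases before and 50 bases after the start in the RefSeq annotation of GRCm38.p6, read 5′ to 3′ on the gene's strand. Capitals mark matches on either strand to CATTGT (a SOX motif) in Wnt1, TGATNNAT (a HOX-PBX motif) in Hoxb1, CTTTGA (a TCF/LEF motif) in T and Sp5, and TGGGAA (an RBPJ motif, read by the effector of Notch) in Hes5.
Wnt1, chr15:98789607-98789906, plus strand: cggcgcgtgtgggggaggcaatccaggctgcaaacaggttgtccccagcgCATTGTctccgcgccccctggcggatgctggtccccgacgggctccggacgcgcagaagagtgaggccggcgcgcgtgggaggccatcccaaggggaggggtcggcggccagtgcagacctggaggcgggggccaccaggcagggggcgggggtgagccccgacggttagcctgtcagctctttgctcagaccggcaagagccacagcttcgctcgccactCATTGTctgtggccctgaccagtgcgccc
Hoxb1, chr11:96365508-96365807, plus strand: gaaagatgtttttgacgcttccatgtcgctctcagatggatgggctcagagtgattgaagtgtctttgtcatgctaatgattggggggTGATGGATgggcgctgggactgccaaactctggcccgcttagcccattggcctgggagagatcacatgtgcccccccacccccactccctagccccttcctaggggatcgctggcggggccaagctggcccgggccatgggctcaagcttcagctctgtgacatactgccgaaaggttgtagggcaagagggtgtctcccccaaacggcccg
T, chr17:8434173-8434472, plus strand: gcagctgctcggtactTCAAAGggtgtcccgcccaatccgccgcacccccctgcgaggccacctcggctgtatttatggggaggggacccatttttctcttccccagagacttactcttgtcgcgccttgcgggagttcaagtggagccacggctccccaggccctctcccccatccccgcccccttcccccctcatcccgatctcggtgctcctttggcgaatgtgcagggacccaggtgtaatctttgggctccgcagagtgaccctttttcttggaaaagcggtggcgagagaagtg
Sp5, chr2:70474673-70474972, plus strand: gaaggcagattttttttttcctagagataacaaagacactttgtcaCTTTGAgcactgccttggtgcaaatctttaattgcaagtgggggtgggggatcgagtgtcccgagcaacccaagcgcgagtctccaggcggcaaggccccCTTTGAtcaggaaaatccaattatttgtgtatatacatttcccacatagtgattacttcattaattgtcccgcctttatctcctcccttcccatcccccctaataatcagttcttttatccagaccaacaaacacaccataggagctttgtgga
Hes5, chr4:154960673-154960972, plus strand: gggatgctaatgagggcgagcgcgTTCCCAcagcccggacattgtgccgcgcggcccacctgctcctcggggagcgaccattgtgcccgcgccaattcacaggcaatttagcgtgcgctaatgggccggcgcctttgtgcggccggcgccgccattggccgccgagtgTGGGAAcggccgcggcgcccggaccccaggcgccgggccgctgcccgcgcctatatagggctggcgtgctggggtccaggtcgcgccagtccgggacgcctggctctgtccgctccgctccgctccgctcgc
The SOX letters occurred at −200 and +21 from the Wnt1 start, the HOX-PBX letters as TGATGGAT at −162 from the Hoxb1 start, the TCF/LEF letters at −234 in T and at −204 and −104 in Sp5, and the RBPJ letters at −226 and −82 in Hes5. Among 32851 windows of the same length, 12.6% held the SOX letters, 8.85% the HOX-PBX letters, 16% the TCF/LEF letters and 25.6% the RBPJ letters on either strand. Single matches of this length are therefore common. Windows of genes that rose held the TCF/LEF letters in 8.88% and the SOX letters in 9.96%, beside 11.1% and 7.04% of the windows of all tested genes.

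Of 13 tested dorsal neural tube genes 7 rose and 1 fell, with a median log2 change of 2.20. Zic1 and Msx3 passed the filter mostly through their 120 h levels, so this share and median are partly set by it. Msx3, a homeobox gene of the dorsal neural tube, stood at 0.459, 0.404, 4.80 and 2.03 CPM at 96 h and 5.97, 13.4, 22.5 and 21 CPM at 120 h. The groups did not overlap, and the log2 change was 3.13 ± 0.43 (adjusted p = 4.24e-05). Pax3, a paired-box factor of the dorsal tube and neural crest, rose by 2.32 ± 0.59 on the log2 scale, from 1.60 ± 2.26 to 7.05 ± 2.18 CPM (mean ± SD, n = 4), without group overlap. Rspo3, a secreted enhancer of WNT signalling, stood at 1.38, 0.808, 4.36 and 5.68 CPM at 96 h and 5.22, 17.9, 25.2 and 35.7 CPM at 120 h, with a log2 change of 2.80 ± 0.36 (adjusted p = 2.28e-05); it rose in every experiment, and the groups overlapped by experiment 1 at 120 h. The WNT ligand genes Wnt3 (2.20 ± 0.44) and Wnt8b (2.40 ± 0.66) also rose, although Wnt8b was not called on leaving out any 1 experiment. Zic5 was the member that fell (−0.60 ± 0.15), and its relative Zic2 (−0.20 ± 0.15, adjusted p = 0.441) was not called. Pax7, like Pax3 a dorsal paired-box gene, failed the filter with 9 and 114 counts per group; without the filter its log2 change was 3.91 ± 0.54 (adjusted p = 6.11e-11). Gdf7, a roof plate ligand, had no count in the 8 libraries, and Atoh1, Bmp6, Msx2 and Wnt3a had 10 or fewer. Without experiment 4, 4 dorsal genes were called higher.

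In the forebrain and midbrain list, 5 of 11 tested genes rose (En1, En2, Pax2, Pax5 and Otx1), Otx2 fell, and the median was 1.14. En1, a homeobox factor of the boundary, was already expressed at 96 h with 47.7, 27.1, 456 and 148 CPM and reached 220.5, 335, 1035 and 528 CPM at 120 h. Experiment 3 was highest and the 96 h library of experiment 3 exceeded 2 of the 120 h libraries, yet En1 rose within each experiment (log2 change 2.08 ± 0.21, adjusted p = 1.4e-06). Its paralogue En2 started much lower, at 0.459, 2.02, 3.49 and 3.65 CPM, and reached 5.97, 8.45, 83.8 and 27.2 CPM. The En2 groups did not overlap and the log2 change was 3.45 ± 0.38 (adjusted p = 3.2e-06). Pax5, which acts downstream of Pax2 at the boundary, stood at 2.29, 2.43, 40.1 and 6.08 CPM at 96 h and 13.1, 30.3, 104 and 59.4 CPM at 120 h, a log2 change of 2.39 ± 0.29 (adjusted p = 9.47e-06). Pax2 changed by 1.73 ± 0.44 (adjusted p = 0.0143) with 1.83, 2.83, 54.1 and 12.6 CPM at 96 h and 23.9, 52.7, 36.9 and 50.5 CPM at 120 h, and its call was lost without experiment 1, 2 or 4. Unlike the other genes of the boundary it went down in experiment 3, where it was highest at 96 h. Hes3, a HES repressor expressed at the boundary, was among the 15 largest rises chosen by rule, at 2.53 ± 0.39 (adjusted p = 0.000186), from 10.3 ± 15.4 to 43.3 ± 21.8 CPM. Pax8 had 4 and 44 counts per group and Fgf8, the organizer's FGF ligand, 10 and 141. Both failed the filter, and without it the log2 change of Fgf8 was 3.89 ± 0.47 (adjusted p = 3.32e-14), with 0.459, 0, 3.05 and 0.811 CPM at 96 h and 2.98, 5.96, 32.4 and 21.9 CPM at 120 h.

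Otx2 and Gbx2, the pair that borders the organizer, moved in opposite directions. Otx2 was also taken here as an epiblast marker. Across the series its mean was highest at 48 h, with 345 ± 47.5 CPM (mean ± SD, n = 4). It was 282 ± 29.3 CPM at 96 h and 191 ± 51.7 CPM at 120 h. Whether its fall was regional was not tested. Otx2 stood at 248, 267, 309 and 304 CPM at 96 h and 154, 225, 245 and 139.8 CPM at 120 h, lower in every experiment without group overlap, a log2 change of −0.58 ± 0.12 (adjusted p = 0.00312) that was not called without experiment 4. Gbx2 stood at 7.80, 3.64, 7.41 and 5.68 CPM at 96 h and 11.2, 10.4, 20.7 and 25.9 CPM at 120 h, with 1.44 ± 0.32 (adjusted p = 0.00559), also not called without experiment 4. Otx1, a relative of Otx2 in the forebrain and midbrain, went the other way from Otx2: it stood at 3.67, 10.1, 129.5 and 6.89 CPM at 96 h and 19.4, 75.5, 140.5 and 77.7 CPM at 120 h (1.84 ± 0.35, adjusted p = 0.00143). Its mean at 96 h came mostly from experiment 3. The forebrain genes Six3 (−0.87 ± 0.43, adjusted p = 0.222) and Fezf2 (−0.12 ± 0.48, adjusted p = 0.916) were not called, and Emx1 and Nkx2-1 had no count.

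**Figure D2:**
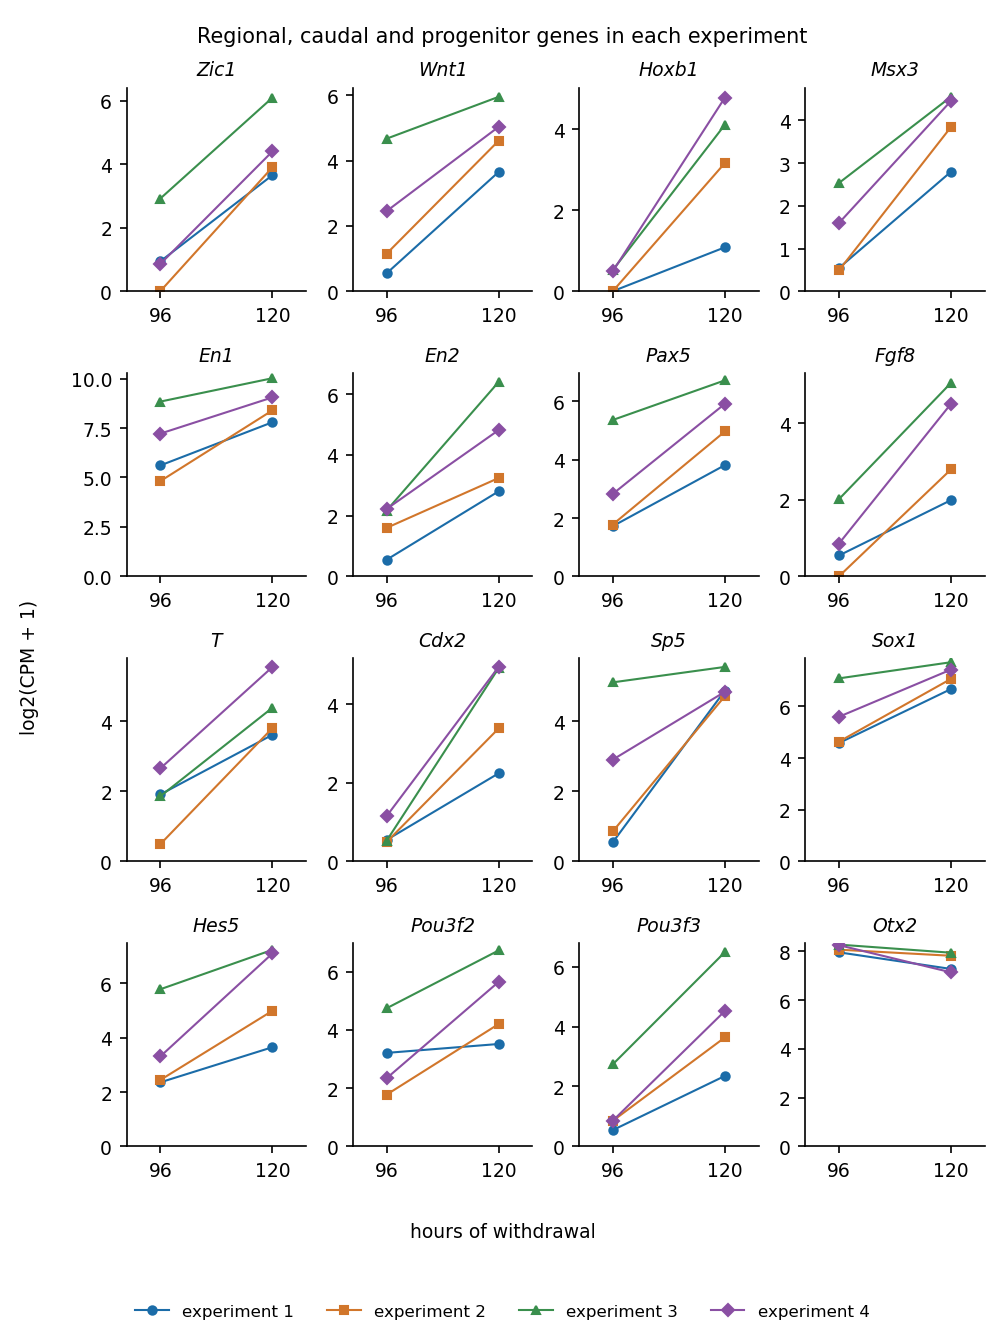
Levels of 16 genes as log2(CPM + 1) against hours of withdrawal, with 1 line per experiment and axes starting at 0. Every line of Zic1, Wnt1, En1, En2, Pax5 and T climbs from 96 h to 120 h, the line of experiment 3 starts highest for Wnt1 and Pax5, and every line of Otx2 falls.

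Of 17 genes of primitive streak and caudal progenitors 4 could be tested and 3 rose (T, Nkx1-2 and Sp5), with a median log2 change of 2.28. The filter could be met by 120 h levels alone, as it mostly was for T, so this share and median are partly set by it. T (Brachyury), the T-box factor of streak and caudal progenitors, stood at 2.75, 0.404, 2.62 and 5.27 CPM at 96 h and 11.2, 12.9, 19.8 and 45.5 CPM at 120 h. Experiment 4 was the highest at both times and the groups did not overlap (log2 change 3.00 ± 0.36, adjusted p = 1.04e-05). Nkx1-2, a homeobox gene of the caudal epiblast, stood at 2.29, 2.43, 13.1 and 8.11 CPM at 96 h and 21.3, 31.8, 23.4 and 50.9 CPM at 120 h, also without overlap (2.37 ± 0.34, adjusted p = 7.99e-05); its locus overlaps Fgfr2, which had 120 and 112 counts per group. Cdx2, which activates posterior Hox genes, had 6 and 161 counts per group and failed the filter; at 120 h it stood at 3.73, 9.44, 29.3 and 29.9 CPM, and without the filter its log2 change was 4.69 ± 0.48 (adjusted p = 1.33e-19). Msgn1, a gene of presomitic mesoderm, had no count, and Tlx2 and Wnt3a had 10 or fewer. Eomes, a T-box factor of the streak, stood at 8.72, 8.09, 5.67 and 8.11 CPM at 96 h and 10.8, 15.9, 7.66 and 29.9 CPM at 120 h; it was higher at 120 h in all 4 experiments but not called (0.97 ± 0.32, adjusted p = 0.0598).

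Of 27 hindbrain and Hox genes, 8 were tested and 3 rose, with a median of 0.79, and none fell. Meis2, a cofactor of Hox proteins, stood at 11.9, 8.49, 28.3 and 17.8 CPM at 96 h and 29.8, 50.2, 81.1 and 72.8 CPM at 120 h, without overlap (1.84 ± 0.20, adjusted p = 3.2e-06). Irx3, an Iroquois factor of the neural plate behind the forebrain, rose by 0.95 ± 0.18 (adjusted p = 0.00169), and Gbx2 was the third. Leaving out experiment 1 raised the count of calls to 6. All 16 Hox genes of the list failed the filter. Hoxb8 had 2 and 61 counts per group, a ratio of 32.7 with a counting interval of 8.68 to 276, while Hoxb6, Hoxd1 and Hoxd4 had no count in the 8 libraries.

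WNT feedback genes rose in part. Of 12 tested, 4 rose and 1 fell, with a median log2 change of 0.33. Axin2, a negative regulator that WNT signalling induces, stood at 5.50, 7.68, 32.3 and 12.2 CPM at 96 h and 24.2, 32.3, 49.5 and 38.4 CPM at 120 h; it rose in every experiment (1.50 ± 0.25, adjusted p = 0.000369) although experiment 3 at 96 h exceeded experiment 1 at 120 h. Sp5, a zinc-finger target of WNT signalling, stood at 0.459, 0.808, 33.6 and 6.49 CPM at 96 h and 28.4, 25.3, 45.9 and 27.7 CPM at 120 h (2.19 ± 0.44, adjusted p = 0.00231). Nkd1, another inducible inhibitor, stood at 7.80, 11.7, 40.6 and 12.2 CPM at 96 h and 37.7, 38.7, 77.0 and 64.3 CPM at 120 h (1.74 ± 0.22, adjusted p = 2.05e-05). In all 3 genes experiment 3 was well above the other experiments at 96 h, and its ratio of 120 h to 96 h was the smallest of the 4. Ccnd1 also rose (0.44 ± 0.10), Tcf7l1, a repressor of WNT targets in stem cells, fell (−0.62 ± 0.14), and both calls were lost without experiment 4. Lef1 (0.29 ± 0.13, adjusted p = 0.161) and Znrf3 (0.03 ± 0.38, adjusted p = 0.976) were not called. Dkk1, a secreted antagonist, had 4 and 39 counts per group and was not tested.

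Of 22 tested neural progenitor genes 14 rose and 1 fell, with a median of 0.91. Sox1, a SOXB1 factor of the neural plate, stood at 22.9, 23.9, 135 and 47.4 CPM at 96 h and 101, 133, 208 and 171 CPM at 120 h, higher in every experiment (1.68 ± 0.20, adjusted p = 8.4e-06). Experiment 3 at 96 h was already above experiments 1 and 2 at 120 h. Sox11 (0.94 ± 0.11) and Sox21 (1.82 ± 0.27) rose too, whereas Sox2, which pluripotent and neural cells share, was not called (−0.31 ± 0.11, adjusted p = 0.0754). Class III POU factors moved apart. Pou3f3 was the largest rise by the naming rule, from 0.459, 0.808, 5.67 and 0.811 CPM to 4.10, 11.4, 88.3 and 21.9 CPM (4.0 ± 0.36, adjusted p = 3.7e-07), and did not pass the filter without experiment 3. Pou3f2 stood at 8.26, 2.43, 25.7 and 4.06 CPM at 96 h and 10.4, 17.4, 105 and 49.1 CPM at 120 h (2.16 ± 0.32, adjusted p = 0.000124), while Pou3f1, which marks the formative epiblast as well, was the member that fell (−1.22 ± 0.17, adjusted p = 4.11e-05). The radial glia gene Fabp7 (1.78 ± 0.41), the transcription factor gene Zbtb16 (2.13 ± 0.21) and Zfp521 (1.50 ± 0.27) also rose, whereas Nes (0.15 ± 0.17, adjusted p = 0.667) and Pax6 (−0.39 ± 0.45, adjusted p = 0.659) were not called.

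Of 15 tested Notch pathway genes 4 rose and none fell (median 0.39), and no tested ligand or receptor gene was called. Hes5, a repressor that Notch induces in neural progenitors, stood at 4.13, 4.45, 54.1 and 8.92 CPM at 96 h and 11.6, 30.8, 149.5 and 136 CPM at 120 h (2.40 ± 0.29, adjusted p = 1.16e-05), and experiment 3 at 96 h exceeded experiments 1 and 2 at 120 h. Lfng, a glycosyltransferase that modifies Notch receptors, rose by 0.98 ± 0.17, the Notch target Nrarp by 1.52 ± 0.37 and the Deltex gene Dtx4 by 1.15 ± 0.14. Dll1 (0.88 ± 0.36, adjusted p = 0.129), Jag1 (0.66 ± 0.24, adjusted p = 0.091) and Notch1 (−0.16 ± 0.23, adjusted p = 0.721) were tested and not called. Of 19 tested neurogenesis and neuron genes 7 fell and 3 rose, with a median of −0.22. Neurod1, a proneural factor, fell by 1.58 ± 0.34 (adjusted p = 0.00448), from 16.8 ± 5.65 to 5.86 ± 4.01 CPM, and Gadd45g by 1.10 ± 0.21 (adjusted p = 0.00115). The neuronal tubulin gene Tubb3 (−0.46 ± 0.12) and the RNA-binding protein gene Elavl3 (−0.90 ± 0.24) fell as well, whereas Elavl4 (1.27 ± 0.31), Nefm (0.79 ± 0.25) and Rtn1 (0.68 ± 0.17) rose. Called falls numbered 1 without experiment 4 and 4 without experiment 1, and called rises 1 without experiment 1, 2 or 4.

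Of 7 tested ventral and hedgehog genes 5 rose, with a median of 1.02: the co-receptor genes Gas1 (0.81 ± 0.16), Cdon (1.02 ± 0.30) and Boc (1.58 ± 0.46), the pathway repressor gene Gli3 (1.03 ± 0.19) and Nkx6-1 (1.13 ± 0.35). The hedgehog targets Ptch1 (−0.75 ± 0.24, adjusted p = 0.0514) and Gli1 (−0.89 ± 0.43, adjusted p = 0.208) were not called, and the ligand gene Shh and the ventral gene Nkx2-2 had no count. The count of rises was 2 without experiment 1 or 2. Among neural crest genes 2 of 7 rose (Pax3 and Cdh6, median 0.95), Sox10 had 10 or fewer counts, and no call held without experiment 1 or without experiment 4.

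Among 23 tested genes that mark the formative or primed epiblast, 12 were called lower and 1 higher (median −0.94). Among 21 tested genes of naive or general pluripotency, 11 were called lower and none higher (median −0.88). Dnmt3b, the de novo DNA methyltransferase of the epiblast, stood at 1251, 1307, 478 and 1316 CPM at 96 h and 738, 626, 112 and 363 CPM at 120 h, lower in every experiment (−1.41 ± 0.15, adjusted p = 2.11e-06). Experiment 3 at 96 h was already below experiments 1 and 2 at 120 h. Its cofactor Dnmt3l, from 60.1, 69.1, 14.4 and 37.7 to 17.2, 14.4, 4.50 and 8.04 CPM, changed by −2.01 ± 0.21 (adjusted p = 1.92e-06). Utf1, a chromatin protein of pluripotent cells, stood at 336, 335, 70.2 and 268 CPM at 96 h and 158, 122, 10.8 and 38.8 CPM at 120 h (−1.83 ± 0.19, adjusted p = 2.08e-06). Fgf5, the classical ligand of the post-implantation epiblast, stood at 59.2, 49.7, 10.5 and 53.1 CPM at 96 h and 26.1, 23.8, 1.35 and 12.9 CPM at 120 h (−1.51 ± 0.23, adjusted p = 0.000166). The epithelial regulator Grhl2 (−1.92 ± 0.33), the RNA-binding protein gene L1td1 (−1.34 ± 0.13) and the kinase gene Pim2 (−1.21 ± 0.19) fell too. Sox3, which the neural progenitor list also holds, was the member that rose (0.45 ± 0.13), and that call was lost without experiment 1, 2 or 4.

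Among naive and general pluripotency genes, Zfp42 (Rex1), a zinc-finger marker of naive cells, went from 45.9, 32.3, 10.5 and 20.7 to 7.09, 10.9, 3.60 and 7.59 CPM (−1.85 ± 0.28, adjusted p = 0.000149). Dppa4 went from 213, 265, 62.4 and 176 to 133, 88.9, 19.4 and 35.3 CPM (−1.49 ± 0.18, adjusted p = 8.38e-06), and its partner Dppa2 by −1.85 ± 0.36 (adjusted p = 0.00167). Both genes were lowest in experiment 3. The Kruppel-like factor genes Klf2 (−1.38 ± 0.22) and Klf5 (−1.15 ± 0.14), the TGF-beta family gene Gdf3 (−1.37 ± 0.23) and the threonine dehydrogenase gene Tdh (−1.21 ± 0.21) fell. Pou5f1 (Oct4) stood at 22, 24.7, 6.98 and 21.5 CPM at 96 h and 14.2, 9.44, 1.80 and 6.70 CPM at 120 h (−1.28 ± 0.29, adjusted p = 0.007); it has near-identical pseudogenes, so counts of uniquely placed reads can understate it, and its call was lost without experiment 2 or 4. Genes at the core of naive identity that were already low, such as Tfcp2l1 (−0.55 ± 0.31, adjusted p = 0.292) and Esrrb (−0.47 ± 0.39, adjusted p = 0.515), were not called, nor was Nanog (0.54 ± 0.29, adjusted p = 0.281).

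Of 17 tested cadherin, claudin and epithelial genes 6 fell and 4 rose (median −0.53). Cdh1 (E-cadherin) stood at 904, 1134, 366 and 776 CPM at 96 h and 581, 481, 61.7 and 284 CPM at 120 h, lower in every experiment (−1.40 ± 0.17, adjusted p = 1.35e-05). Cdh2 (N-cadherin) stood at 17, 14.6, 54.1 and 30.8 CPM at 96 h and 48.1, 61.6, 88.3 and 53.6 CPM at 120 h (1.22 ± 0.20, adjusted p = 0.000352). At 96 h experiment 3 had the lowest Cdh1 and the highest Cdh2, and both groups overlapped because of it. The tight junction genes Cldn6 (−1.79 ± 0.19, adjusted p = 2.36e-06) and Cldn7 (−1.36 ± 0.20), Epcam (−1.18 ± 0.15), the splicing regulator gene Esrp1 (−1.45 ± 0.22) and Rab25 (−1.21 ± 0.24) fell with Cdh1. Cdh11 (1.56 ± 0.31) and Zeb1, a repressor of Cdh1 (1.38 ± 0.21, adjusted p = 0.000149), rose with Cdh2, whereas Vim (0.29 ± 0.12, adjusted p = 0.122), Krt8 (−0.53 ± 0.33, adjusted p = 0.343) and Krt18 (−0.21 ± 0.23, adjusted p = 0.635) were not called.

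**Figure D3:**
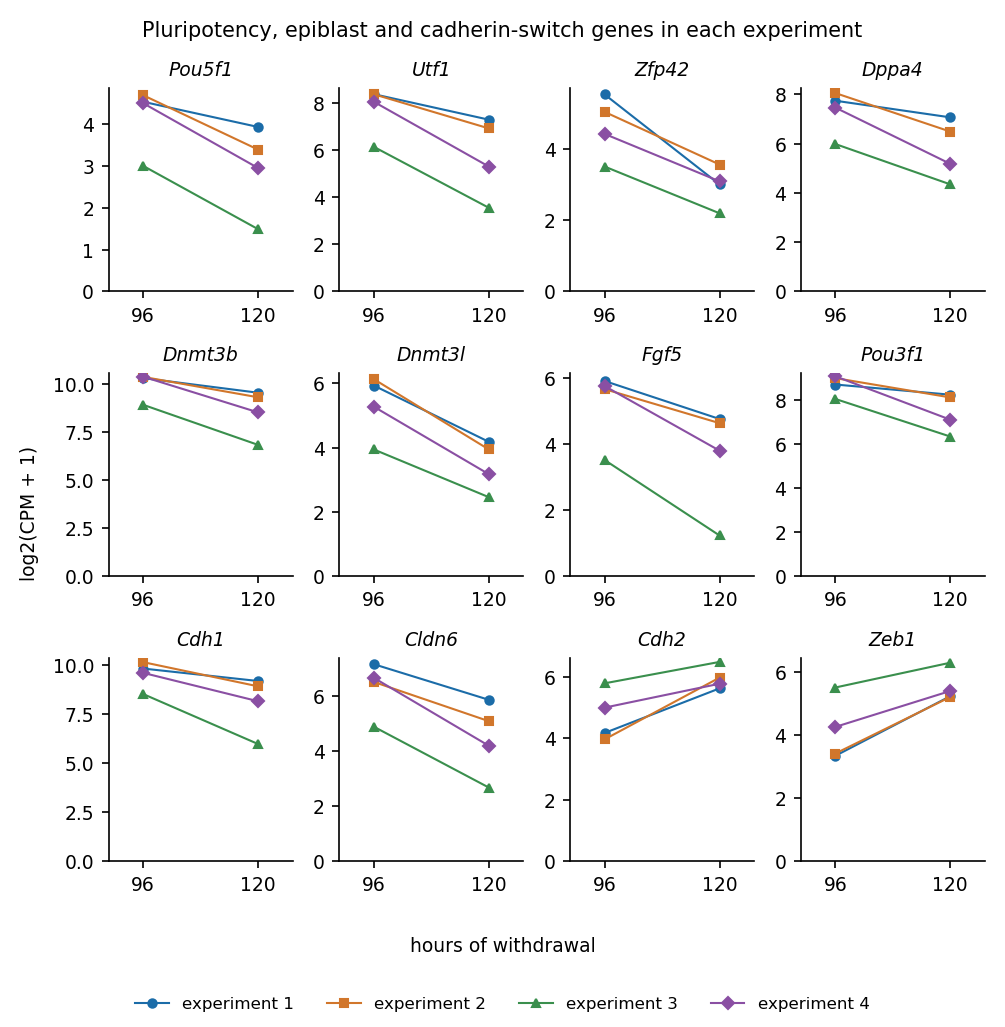
Levels of 12 genes as log2(CPM + 1) against hours of withdrawal, with 1 line per experiment and axes starting at 0. Lines of Utf1, Dnmt3b, Dnmt3l, Fgf5, Cdh1 and Cldn6 fall in all 4 experiments with experiment 3 lowest at both times, and those of Cdh2 and Zeb1 climb with experiment 3 highest.

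Signalling lists changed in part. Of 16 tested FGF and ERK feedback genes 5 rose and 2 fell (median 0.11): the ERK inhibitor genes Spred1 (1.08 ± 0.16), Il17rd (1.58 ± 0.20) and Spry2 (0.71 ± 0.18) rose with Phlda1 (1.00 ± 0.21) and Egr1 (0.88 ± 0.24), and Fgf4 (−1.29 ± 0.28) and Dusp4 (−0.95 ± 0.20) fell. Of 13 BMP pathway genes 3 rose and none fell (median 0.37): Smad5, a BMP signal transducer (0.68 ± 0.14), Id2 (0.92 ± 0.21) and Fst, a secreted antagonist of the TGF-beta family (1.05 ± 0.27), with 1 call left without experiment 2 or 4. Of 10 retinoid genes 3 rose and 1 fell (median 0.47). The binding protein gene Crabp1 stood at 23.4, 20.6, 54.1 and 38.5 CPM at 96 h and 42.9, 47.2, 257 and 137 CPM at 120 h (1.64 ± 0.18, adjusted p = 3.59e-06), Nrip1 (1.69 ± 0.19) and Rxra (0.79 ± 0.21) rose, and the receptor gene Rarg fell (−0.97 ± 0.14). Aldh1a2, which makes retinoic acid, had 0 counts at 96 h and 28 at 120 h, at least 10.01-fold higher against a floor of 3 counts over the group.

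Axon guidance and neural adhesion genes included 7 rises and 3 falls among 22 tested (median 0.73). Efnb1, a membrane-bound ephrin ligand, stood at 13.8, 15.4, 116 and 42.6 CPM at 96 h and 128, 129, 295 and 223 CPM at 120 h, without group overlap (2.34 ± 0.20, adjusted p = 3.31e-07). Flrt3, an adhesion protein that binds Unc5 receptors, rose by 2.02 ± 0.28, Nrp2, a semaphorin receptor, by 1.53 ± 0.30, and Efna5 by 0.97 ± 0.17. The falls were Cntn2 (−1.27 ± 0.34), Unc5b (−0.95 ± 0.20) and Sema6a (−0.59 ± 0.18). Rises numbered 4 without experiment 1 or 2, and no fall was called without experiment 4.

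Hmga2, a chromatin protein of fetal progenitors, stood at 45.9, 31.5, 154 and 68.9 CPM at 96 h and 153, 157, 285 and 241 CPM at 120 h (1.64 ± 0.16, adjusted p = 1.02e-06) and led 4 rises among 13 tested oncofetal genes (median 0.17), with Lin28b (0.59 ± 0.15), Igf2bp3 (0.43 ± 0.10) and Mycl (1.19 ± 0.28). Rises numbered 2 without experiment 2 and 1 without experiment 4. Of 19 tested imprinted genes 5 rose and 4 fell (median 0.29). Meg3, a maternally expressed noncoding RNA, went from 1776 ± 376 to 1184 ± 593 CPM (−0.71 ± 0.13, adjusted p = 0.0012), and its neighbour Mirg changed by −0.82 ± 0.15. Snrpn fell by 0.87 ± 0.16 but shares its locus with an overlapping gene, so its level is uncertain. Mest (0.73 ± 0.11), Cdkn1c (0.64 ± 0.17), Grb10 (0.65 ± 0.16), Ndn (0.55 ± 0.16) and Sgce (1.34 ± 0.40) rose, with 1 rise called without experiment 2 or 4 and 3 without experiment 1.

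Of 23 mitosis and replication genes 1 rose (Ccne2, 0.86 ± 0.16) and 1 fell (Ccne1, −0.51 ± 0.12), with a median of −0.07. Each count is 4.35% of that list, near the 5.19% of all tested genes that rose and the 4.5% that fell. Glycolysis and hypoxia genes gave 1 rise (Vegfa, 4.35%) and 2 falls (Pfkp and Egln3, 8.70%) among 23 (median 0.04). ATF4 and serine synthesis genes gave 1 fall (Trib3, 5.88%) among 17 (median 0.08). Sterol synthesis genes gave 4 falls among 21 (median −0.12), with no call without experiment 2 or 4. p53 targets and CDK inhibitors gave 4 falls, including Mdm2 (−0.61 ± 0.13), Trp53inp1 (−0.64 ± 0.15) and Phlda3 (−0.74 ± 0.16), and 1 rise among 16 (median −0.40); 2 falls were called without experiment 4. Of 10 mitochondrially encoded genes 6 fell (median −0.35), among them mt-Nd2 (−0.58 ± 0.09) and mt-Co1 (−0.61 ± 0.12), with 3 called without experiment 4 and 4 without experiment 2. Immediate stress genes gave 1 rise (Egr1) and 1 fall (Junb) among 8 (median −0.19).

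Few markers of other lineages could be tested: 10 of 13 endoderm, 12 of 15 mesoderm and vascular, and 10 of 13 surface ectoderm and placode genes were not. None of the 3 tested genes of each list was called. Beside 9.69% of all tested genes called, so few genes say little about these lineages. T was counted with the streak and caudal genes above. The summed levels of these lists ran from 17.8 to 38.8, 29.7 to 56.4 and 22.2 to 41.3 CPM at 96 h and from 25.3 to 37.5, 20.7 to 41.4 and 20.7 to 35.8 CPM at 120 h. Afp, Ttr, Hand2 and Krt5 had no count, and Gata4, Gata6, Sox17 and Trp63 had 10 or fewer in the 8 libraries. Of 7 tested fibroblast genes Thy1 fell (−0.78 ± 0.24, not called on leaving out any 1 experiment), and the summed level ran from 164 to 335 CPM at 96 h and from 141 to 440 CPM at 120 h.

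**Figure D4:**
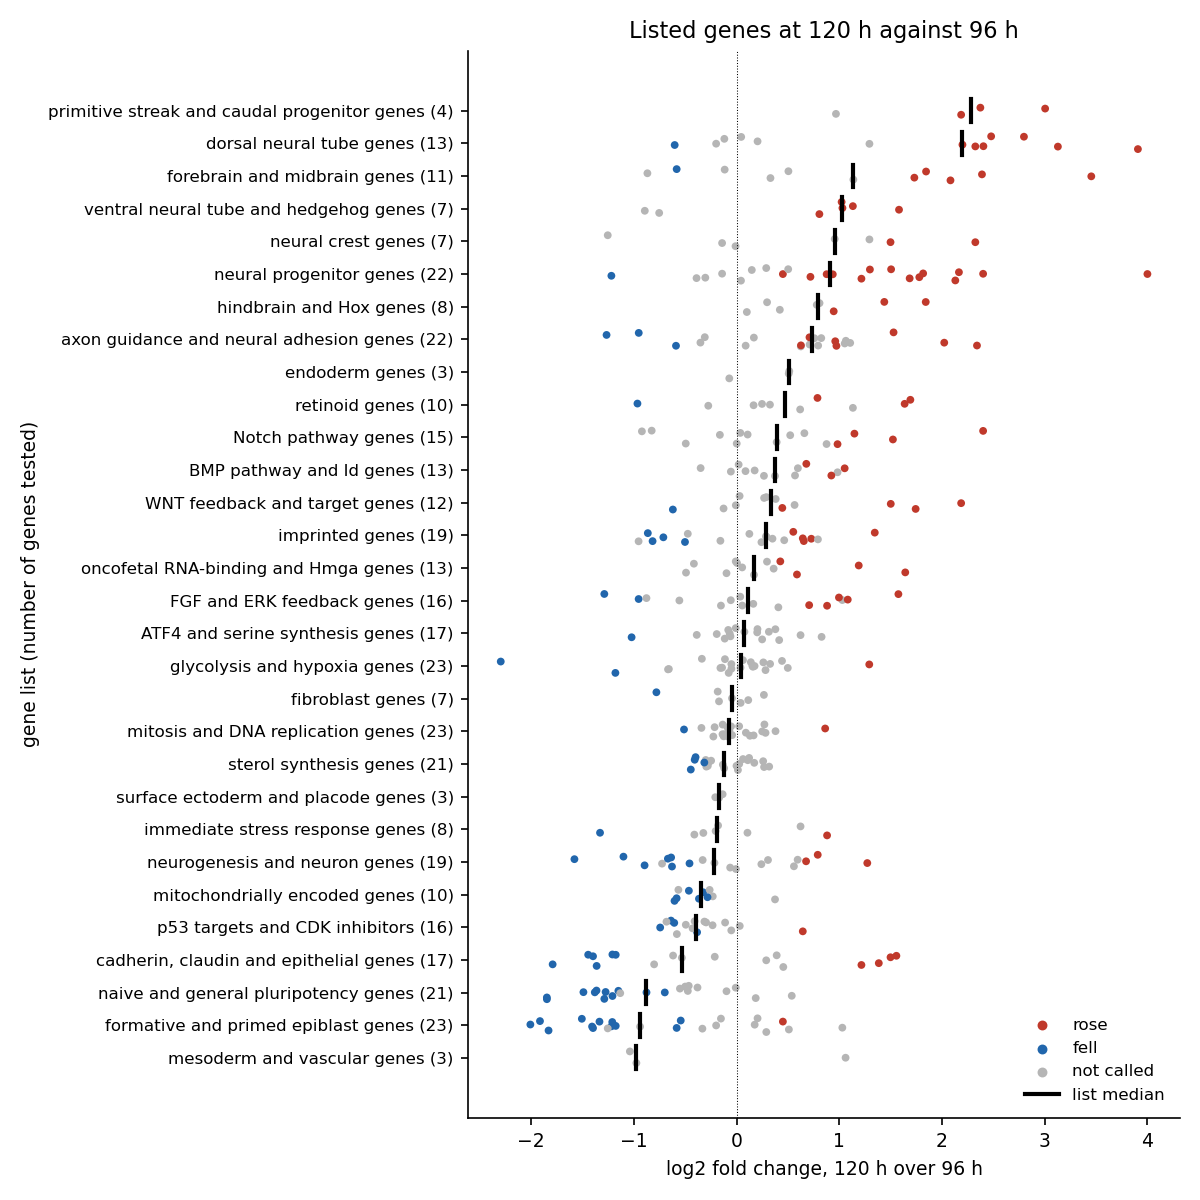
Log2 fold change (120 h over 96 h) of the tested genes of the 30 lists, 1 dot per gene, red where the gene rose, blue where it fell and grey where it was not called; black bars are list medians. Medians run from −0.98 for the 3 mesoderm and vascular genes, none called, to 2.28 for the 4 streak and caudal genes.

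Of the 30 genes named by the size of their change, 13 have been given above, and the others are as follows. Among the rises, Tmem132c (3.07 ± 0.41), Lgi1, a secreted synaptic protein gene (2.63 ± 0.46, below the filter without experiment 3), Wnt7b, a WNT ligand gene (2.61 ± 0.47), Ndnf, a secreted neuron-derived factor gene (2.58 ± 0.49), the nuclear receptor gene Nr2f1 (2.47 ± 0.33), the WNT receptor gene Fzd10 (2.43 ± 0.35) and the zinc-finger gene Zfp503 (2.40 ± 0.32) were higher in all 4 experiments. Nr2f1 (COUP-TFI) patterns the neural tube and stood at 3.67, 2.83, 51.0 and 7.71 CPM at 96 h and 26.9, 51.2, 96.8 and 89.3 CPM at 120 h; it overlaps an antisense gene with 5 and 46 counts per group. Among the falls were the lipase gene Liph (−2.27 ± 0.39), Urah (−2.04 ± 0.43), Platr17 (−2.02 ± 0.30), Pramef12 (−2.0 ± 0.42), the germline gene Tdrd12 (−1.96 ± 0.44), Rasip1 (−1.92 ± 0.24) and the X-linked homeobox gene Rhox5 (−1.92 ± 0.14), lower in all 4 experiments. Platr17 is protein-coding in the annotation used for positions. Rhox5 stood at 206, 201, 65.8 and 163 CPM at 96 h and 70.5, 51.2, 16.7 and 33.5 CPM at 120 h (adjusted p = 1.49e-08). The other named falls are uncertain: Sned1 (−1.99 ± 0.42) overlaps Mterf4, Hsf2bp (−1.88 ± 0.24) overlaps Rrp1b with 2011 and 1612 counts per group, and Rpl10l (−1.84 ± 0.31) is a close copy of Rpl10. Liph, Urah and Sned1 did not pass the filter without experiment 1, and Tdrd12 and Sned1 were not called without experiment 2.

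Across the 7 groups of the series, the genes that rose on the last day had different histories, given here as levels without a test (mean ± SD, n = 4). Zic1 stood at 0.283 ± 0.329 CPM at 48 h, 2.07 ± 3.01 at 96 h and 28.2 ± 26.2 at 120 h, and it had no count in 2iL. Hes5 and Sox1 were likewise low until 48 h. T, Sp5 and Axin2 instead started high in 2iL, which contains a GSK3 inhibitor, and dipped before the last day: T stood at 19.5 ± 6.54 CPM in 2iL, 0.118 ± 0.236 at 24 h, 0.665 ± 0.650 at 48 h and 22.4 ± 15.9 at 120 h, so that its 120 h level was close to that in 2iL. Axin2 stood at 49.6 ± 14.4, 4.22 ± 1.14 and 36.1 ± 10.7 CPM in 2iL, at 48 h and at 120 h. The falling genes differed in when they were highest. Dnmt3b rose from 92.1 ± 22.2 CPM in 2iL to 1027 ± 129 at 48 h and 1088 ± 408 at 96 h. The mean of Fgf5 was highest at 96 h with 43.1 ± 22.1 CPM, and that of Utf1 at 48 h with 534 ± 39.2 CPM. In experiment 3, however, Dnmt3b (1181 and 478 CPM) and Fgf5 (42.7 and 10.5 CPM) were higher at 48 h than at 96 h. Cells given 2iL at 96 h were collected at the same total time as the 120 h cells, and had 0.396 ± 0.272 CPM of Wnt1 and 125 ± 109 CPM of En1 against 31.9 ± 21 and 529.7 ± 360.2 at 120 h, while Zic1 stood at 26.6 ± 23.2 CPM there.

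**Figure D5:**
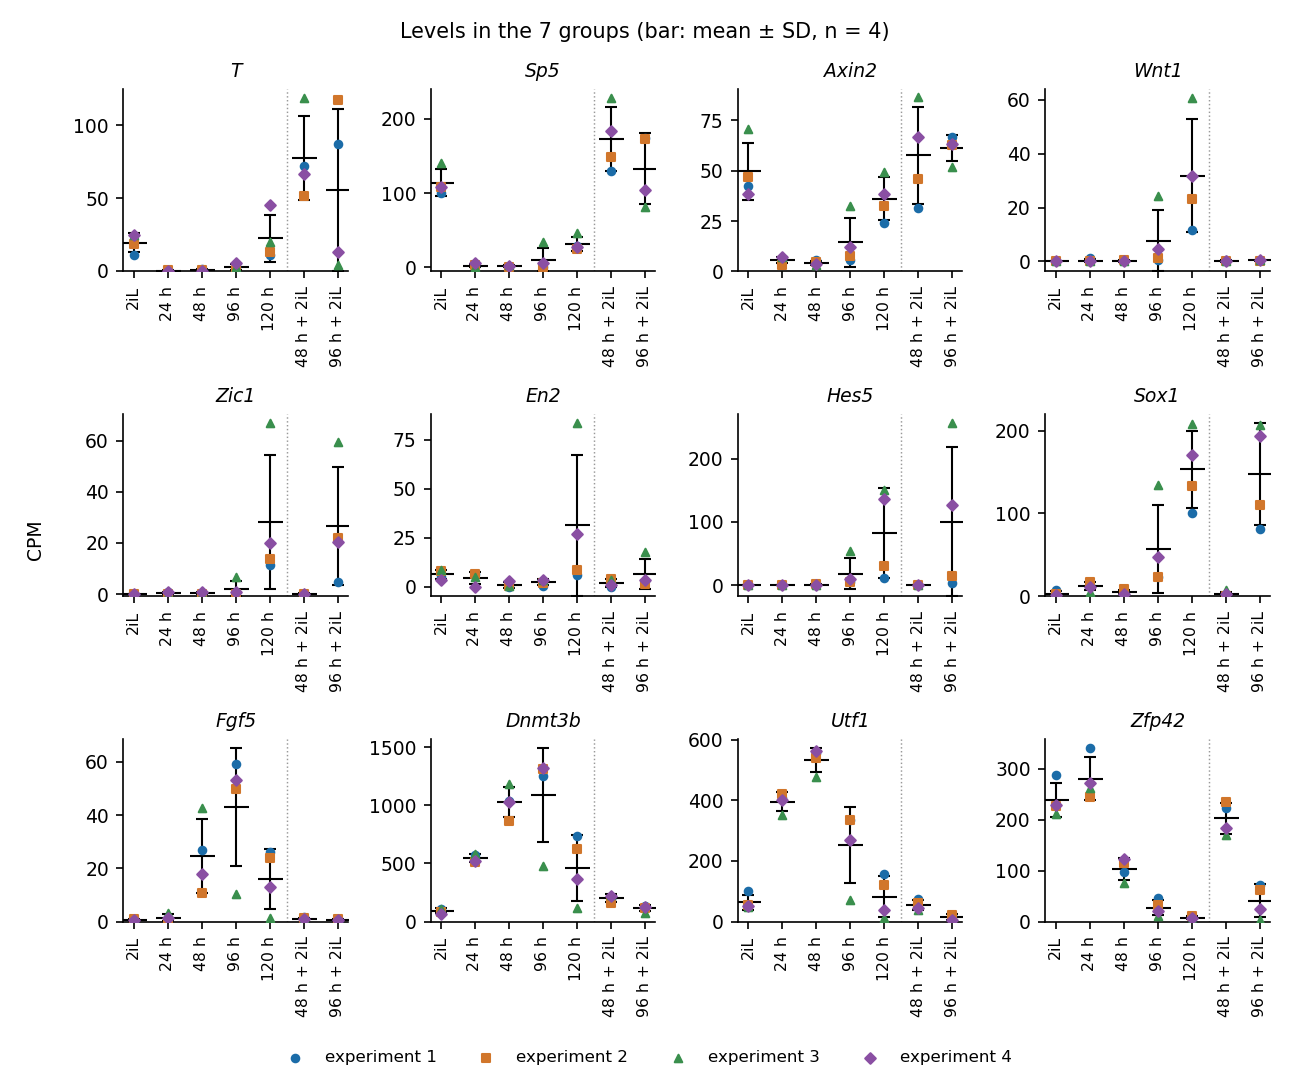
CPM of 12 genes in the 7 groups, with 1 symbol per experiment and bars for mean ± SD (n = 4); the dotted line separates withdrawal from cells given 2iL again for 24 h. Zic1, Wnt1, En2 and Hes5 are highest at 120 h among the withdrawal times, and T and Sp5 have a second level at 120 h after a dip. The means of Fgf5 and Dnmt3b peak at 96 h, although experiment 3 was higher at 48 h for both.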

How the data were processed

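The 8 libraries of 3′ digital RNA sequencing (4 per group) were analysed from the gene counts that the authors deposited, 1 file per library, labelled as counts of uniquely placed reads. Per the submitters' processing notes, the tools were bcl2fastq, STAR 2.6.0a and HTSeq with build mm10; the annotation, strand setting and any use of molecular identifiers are not given in the sources used here. A deposited table of CPM equalled the counts scaled to each library's total gene count in 28 of 28 columns, within 1e-06, and was used only for this check. Summary lines that name no gene were left out of library sizes; reads without a unique alignment were 53.5% to 56.7% and reads outside features 6.68% to 8.58% of each file. No pair of replicates was alike within sampling noise (chi-square per gene 3.16 to 10.3), and intervals cover counting error only.

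Genes that passed filterByExpr (minimum count 10, total 15) were fitted with edgeR 4.0.16 in R 4.3.3: TMM scaling, group and experiment as terms, quasi-likelihood test, Benjamini-Hochberg adjustment over all tested genes, threshold 0.05. Standard errors are approximate, from the fold change and its F statistic. Printed CPM use TMM scaling over all 28 libraries. The experiment number comes from the titles. Deviations from group means correlated within experiments at 0.314, 0.168, 0.405 and 0.107 across 9836 genes. Between different experiments the correlations ran from −0.413 to 0.28. Experiment 2 at 96 h correlated more with experiment 1 at 120 h (0.28) than with its own 120 h library. Likewise, experiment 4 at 120 h correlated more with experiment 3 at 96 h (0.187) than with its own 96 h library. The test was tried on simulated counts. Positions are from GENCODE M21.

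Genes were named by rule: the 15 largest rises and 15 largest falls among called genes with a mean of at least 10 CPM in the higher group and the same direction in all 4 experiments, without predicted or mitochondrial genes and pseudogenes, and members of 30 lists (569 symbols, of which 381 were tested). The comparison and the lists were chosen with earlier results of these data known, and are described by counts and medians. Alternatives were the fit without the block, with all 28 libraries, with other scaling (RLE factors, library totals), without the filter, DESeq2 1.42.0, and each experiment left out.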

Additional observations from a re-analysis of the deposited data

Results flagged for a closer look

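In 146 groups of 4 libraries (named genes at each time, and library measures), 22 had a highest or lowest library whose gap to the next exceeded Dixon's critical share of the group's range, or 15.1%, where chance flags about 5%. Of these, 18 were libraries of experiment 3. The rate of 5% is for independent groups of normally distributed values. These genes share the same libraries and were mostly chosen for their change, so 15.1% is not a test against that rate.

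At 96 h, experiment 3 was far above the other libraries for 12 genes: Pou3f3 (5.67 CPM, next 0.811), Zic1 (6.54), Tmem132c (7.41), Wnt7b (28.3), Wnt1 (24.4), Nr2f1 (51.0), Zfp503 (40.1), Pax5 (40.1), Otx1 (129.5 CPM, next 10.1), Nkd1 (40.6), Hes5 (54.1) and Ccnd2 (797 CPM, next 191). It was far below them for Dnmt3b (478 CPM, next 1251). These genes rose or fell, respectively, between 96 h and 120 h, so at 96 h this library stood on the side of the 120 h libraries.

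At 120 h, experiment 3 was far above the others for Zic1 (67.1 CPM, next 20.1), Ndnf (22.5), Sp5 (45.9) and Zeb1 (78.4), and far below for Pramef12 (0.45). Experiment 1 at 120 h retained more Urah (7.83) and Sned1 (7.83 CPM) than the others. Cdx2 at 96 h was highest in experiment 4 (1.22 CPM, next 0.459), a difference of few counts. The mitochondrial share at 96 h was highest in experiment 1 (1.99%, next 1.73%).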

How the results depend on the processing

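For 65 called genes, those named by size and the main examples of the lists, each alternative was followed gene by gene, and the direction was the same wherever the gene was tested. The experiment term decided how many genes were called. Without the replicate block, the pairing by experiment, edgeR called 0 genes (0 higher, 0 lower, 0 list members), with 1684 at an unadjusted p under 0.05. DESeq2 without the block, added after seeing the data, called 159 (88 higher, 71 lower, 24 list members). Fitting all 28 libraries gave 580 genes with the block (295 higher, 285 lower, 92 list members) and 126 without it (66, 60 and 29). DESeq2 with the block called 592 (309 higher, 283 lower), all among the 953. Leaving out 1 experiment gave 429 to 1087 genes, 251 to 551 higher, 178 to 536 lower and 87 to 159 list members, the fewest without experiment 4 and the most without experiment 3. Of the 953 genes 327 were called whichever experiment was left out, and none changed sign. These fits share most of their libraries with the full fit, so an unchanged sign was largely set by the call.

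RLE factors gave 972 calls and library totals 949, but with library totals 64.3% of calls were higher, beside 53.5%. Without the filter 1182 genes were called, among them 86 genes not tested otherwise, 48 higher and 38 lower, and 15 members of the lists. Of the same 65 genes, 4 were not called with all 28 libraries and the block (Otx2, Gadd45g, Fgf5 and Meg3) and 3 with DESeq2 and the block (Pax2, Meg3 and Snrpn). Other members of the lists lost more: with all 28 libraries and the block, ventral and hedgehog rises numbered 1 (5 in the 8 libraries), Notch rises 2 (4), neurogenesis falls 2 (7) and rises 0 (3), imprinted rises 0 (5) and falls 1 (4), mitochondrial falls 3 (6), guidance falls 0 (3) and sterol falls 0 (4). Depth limits the Hox, Cdx and Fgf8 results, which rest on few counts at 96 h; the cause of the other differences between settings was not tested.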

Other observations

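The genes in this section were chosen after their values were seen. Of 19 WNT ligand genes 6 passed the filter, and all 6 rose (Wnt1, Wnt3, Wnt5a, Wnt5b, Wnt7b and Wnt8b), also with library totals. The filter asked for about 4.63 CPM in 4 libraries, which 120 h levels alone could meet. Wnt7b, for example, stood at 0, 0, 28.3 and 2.84 CPM at 96 h. That every tested ligand gene rose is thus partly set by the filter. Wnt5a, a ligand of non-canonical WNT signalling, went from 8.48 ± 5.69 to 27.9 ± 20.3 CPM (mean ± SD, n = 4; log2 change 1.68 ± 0.28, adjusted p = 0.000374), and Wls, which carries WNT proteins to the cell surface, changed by 1.56 ± 0.21. Of 8 tested Frizzled receptor genes 3 rose (Fzd3, Fzd9 and Fzd10) and 2 fell (Fzd5 and Fzd7). Ccnd2, the D-type cyclin of neural progenitors, stood at 176, 139.9, 797 and 191 CPM at 96 h and 605, 767, 2318 and 1089 CPM at 120 h (2.07 ± 0.13, adjusted p = 4.23e-09). The secreted heparin-binding growth factor genes Ptn (1.91 ± 0.17) and Mdk (0.62 ± 0.10), the immunoglobulin-superfamily genes Igdcc3 (1.83 ± 0.12) and Prtg (1.42 ± 0.16), the chromatin remodeller gene Chd3 (1.58 ± 0.15) and the histone methyltransferase gene Ezh2 (0.54 ± 0.09) rose, as did Rfx4 (2.02 ± 0.38), a factor of the neural tube, Irx1 (1.54 ± 0.28) and Pou3f4 (1.51 ± 0.21).

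On the falling side were 2 of 3 tested metallothionein genes, Mt1 (−1.04 ± 0.13) and Mt2 (−1.10 ± 0.11), and the ferritin gene Fth1 (−0.78 ± 0.10), whose products bind metals. The interferon-induced transmembrane genes Ifitm1 (−1.12 ± 0.17) and Ifitm3 (−1.23 ± 0.12), the pluripotency-associated genes Zscan10 (−1.47 ± 0.17), Tet1 (−0.82 ± 0.14) and Apela (−1.11 ± 0.12), and the noncoding RNA genes Platr10 (−1.50 ± 0.15) and Lncenc1 (−1.93 ± 0.29) fell too. Of 11 tested Kruppel-like factor genes 5 fell (Klf2, Klf5, Klf6, Klf7 and Klf9) and Klf3 rose. Of 79 tested cytosolic ribosomal protein genes 78 had a log2 change below 0, with a median of −0.19; 10 were called lower and none higher, and with library totals the median was −0.14 and 4 were called. Many of these genes have close copies in the genome, so their counts of uniquely placed reads are uncertain.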
